A study of Mus musculus with 4 samples.

Results

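The genes of eicosanoid synthesis were examined in leukemia-initiating cells (LICs) of the murine MLL-AF9 model of acute myeloid leukemia. The group holds 10 genes of the 27179 in the expression table: the phospholipase Pla2g4a, the leukotriene genes Alox5, Alox5ap, Lta4h and Ltc4s, the cyclooxygenases Ptgs1 and Ptgs2, the terminal synthases Hpgds and Tbxas1, and the degrading enzyme Hpgd. They were selected on their place in the pathway, at a time when results of the same comparison were known, among them the lower FPKM of Pla2g4a in the CD274-null libraries. Their differences between the genotypes are therefore given as a description, with no p-value. All 10 were found by symbol and NCBI gene number.

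RNA was sequenced from 4 libraries of bone marrow LICs, 2 labelled WT (wild type) and 2 labelled CD274-null (genotype CD274-/-, titled KO). All were of strain C57BL/6 and labelled 6 weeks of age. The study sorted its LICs as Mac-1+/c-Kit+ cells, while its sequencing methods name tissue as the source of the RNA. In both groups Lin- fetal liver cells had been infected with a retrovirus that carries the fusion oncogene MLL-AF9 and a yellow fluorescent protein, and had been given to lethally irradiated C57BL/6 recipients. The deletion came from the donor mice, and no source used here says whether the libraries of a group came from separate mice. Any p-value then measures the spread between these libraries alone.

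Eicosanoids are signalling lipids made from arachidonic acid. A cytosolic phospholipase A2, encoded by Pla2g4a, frees arachidonic acid from membranes. In one branch, 5-lipoxygenase (Alox5) and its membrane partner, the 5-lipoxygenase-activating protein (Alox5ap), form leukotriene A4, which Lta4h turns into leukotriene B4 and Ltc4s into the cysteinyl leukotriene C4. In the other branch, the cyclooxygenases Ptgs1 and Ptgs2 form prostaglandin H2, from which Hpgds makes prostaglandin D2 and Tbxas1 makes thromboxane. Hpgd oxidises prostaglandins to inactive 15-keto forms. Myeloid cells are the main source of leukotrienes, and Alox5 has been described as needed by leukemia stem cells of a mouse model of chronic myeloid leukemia.

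The libraries were checked against their labels first. Cd274 itself (chromosome 19, 29362107 to 29388095) stood at 2.80 and 0.945 FPKM in WT and at 1.43 and 2.29 in CD274-null. The deleted gene thus did not separate the groups, and a value per gene does not show which exons the reads came from, so "WT" and "CD274-null" below stand for the libraries labelled so. Each library rested on between 8285063 and 10968851 reads recovered on genes. All 8 LIC identity markers were present, with Elane the highest, Kit between 6.59 and 19.5 and Itgam, which encodes a chain of Mac-1, between 100.2 and 174. Mpo of the same list, picked out after its values were seen, was called higher, at 444 and 403 in WT against 1427 and 925 in CD274-null, and Ptprc stood at 72.8 and 86.8 against 53.3 and 53.0. Xist and the Y-linked gene Ddx3y also differed between libraries, with Xist at 2.57 and 51.1 in WT against 107 and 68.7 in CD274-null, and Ddx3y at 27.1 and 18.1 against 0.0244 and 6.28. Both thus moved with genotype, and the part of sex in any difference below was not tested.

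The 10 genes spanned mean levels from 0.111 to 662 FPKM, and since FPKM is scaled by gene length the levels can be set side by side. Alox5ap, Lta4h and Hpgd were at the top, with mean FPKM over the 4 libraries of 662 ± 147, 644 ± 140.4 and 508 ± 197 (SD, n = 4). Each lay above 99.2% or more of the 13230 genes whose mean FPKM reached 0.5, and their ranges overlapped, so these 3 could not be put in order. Together they made up 91.5% to 93.9% of the summed FPKM of the group in each library. Ptgs1 followed at 82.7 ± 11.7 (SD, n = 4), apart from its neighbours on both sides. Alox5 at 37.4 ± 14.6 and Pla2g4a at 14.1 ± 6.54 (SD, n = 4) overlapped in range, as did Tbxas1 (5.39 ± 2.26), Ptgs2 (1.75 ± 1.58), Ltc4s (0.667 ± 0.679) and Hpgds (0.111 ± 0.0945), each with the next. The SD includes the difference between the genotypes.

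**Figure D1:**
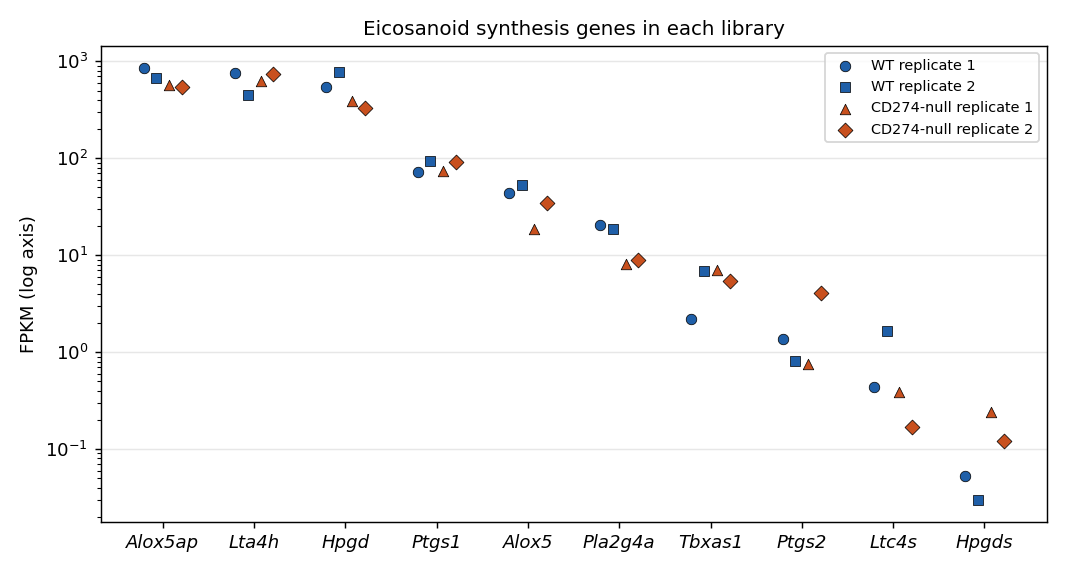
FPKM of each eicosanoid synthesis gene in the 4 libraries, on a log axis, ordered by the mean; circles and squares are the WT replicates, triangles and diamonds the CD274-null replicates. Both CD274-null libraries lie below both WT libraries for Alox5ap, Hpgd, Alox5, Pla2g4a and Ltc4s, while Lta4h, Ptgs1, Tbxas1 and Ptgs2 overlap and Hpgds, below the filter, is higher in both CD274-null libraries.

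Pla2g4a stood at 20.6 and 18.8 FPKM in WT and at 8.03 and 8.93 in CD274-null. These values rest on at least 678, 546, 202 and 253 reads. Both CD274-null libraries were below both WT libraries, at 43.0% of the WT mean, and the replicates of each genotype lay close together. The difference of the group means was -1.17 on the log2(FPKM + 0.5) scale (standard error 0.24), and it stayed between -1.24 and -1.10 with any 1 library left out. Pla2g4a lies on chromosome 1 from 149829618 to 149961290 (GRCm38, minus strand), and its nearest listed neighbour is the cyclooxygenase gene Ptgs2, which starts 139 kb further on (150100031 to 150108234). The neighbours did not share a pattern.

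In the leukotriene branch, both genes of leukotriene A4 synthesis were lower in both CD274-null libraries. Alox5 (chromosome 6, 116410071 to 116461178) stood at 43.4 and 52.9 FPKM in WT and at 18.6 and 34.7 in CD274-null, 55.4% of the WT mean, from at least 1419, 1522, 465 and 977 reads. The groups did not overlap, but the CD274-null libraries differed more from each other than the nearer one did from WT. The log2 difference was -0.90 (standard error 0.33), or -1.34 without CD274-null replicate 2 and -0.46 without CD274-null replicate 1. Alox5ap (chromosome 5, 149265004 to 149288153) had 863 and 677 in WT against 567 and 539 in CD274-null, 71.8% of the WT mean, with a log2 difference of -0.47 (standard error 0.27), or -0.29 without WT replicate 1. Here WT replicate 1 stood highest and the other WT library was nearer to the CD274-null ones. Within every library Alox5ap exceeded Alox5, by 19.9-fold and 12.8-fold in WT and by 30.5-fold and 15.5-fold in CD274-null, and these ratios overlapped between the genotypes.

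Lta4h (chromosome 10, 93453396 to 93484896), the hydrolase that makes leukotriene B4, stood at 761 and 453 FPKM in WT and at 626 and 737 in CD274-null. Both CD274-null values lay between the WT ones. Its log2 difference of 0.21 (standard error 0.33) turned to -0.16 without WT replicate 2. Ltc4s (chromosome 11, 50236461 to 50238532), the synthase of the cysteinyl branch, was low, with 0.441, 1.67, 0.385 and 0.171 FPKM from at least 3, 10, 2 and 1 reads. It passed the filter on low values through WT replicate 2 alone, so no fold is given for it. The FPKM of Lta4h was above that of Ltc4s in all 4 libraries.

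Of the cyclooxygenases, the constitutive Ptgs1 (chromosome 2, 36216742 to 36258593) was steady. Its FPKM was 72.0 and 94.6 in WT against 73.2 and 91.0 in CD274-null, with a log2 difference of -0.02 (standard error 0.24). Its highest value was 1.31 times its lowest, the smallest such ratio of the 10 genes. The inducible Ptgs2 had 1.35 and 0.805 in WT against 0.763 and 4.09 in CD274-null, from at least 65, 34, 28 and 169 reads. Its high value came from CD274-null replicate 2 alone, and the log2 difference of 0.63 (standard error 0.66) became -0.30 without that library. Ptgs1 was higher than Ptgs2 in all 4 libraries, by 22.2-fold to 118-fold.

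Downstream of the cyclooxygenases, the RNA of the degrading enzyme Hpgd was far more abundant than that of the group's terminal synthases, Tbxas1 and Hpgds. Hpgd (15-hydroxyprostaglandin dehydrogenase, chromosome 8, 56294552 to 56321046) stood at 538 and 773 FPKM in WT and at 391 and 330.5 in CD274-null, from at least 10704, 13522, 5948 and 5657 reads. Both CD274-null libraries were below both WT libraries, at 55.1% of the WT mean, and the log2 difference was -0.84 (standard error 0.29), between -1.10 and -0.58 with 1 library left out. The ratio of Hpgd to Ptgs1 within a library was 7.47 and 8.17 in WT against 5.34 and 3.63 in CD274-null. Tbxas1 (chromosome 6, 38864159 to 39084590), thromboxane synthase, had 2.19 and 6.85 in WT against 7.09 and 5.43 in CD274-null. Only WT replicate 1 was low, and the log2 difference of 0.59 (standard error 0.51) became -0.13 without it. Tbxas1 overlaps 7 other annotated genes, among them Hipk2, and the strand setting of the counting is not given in the sources used here. Hpgds (chromosome 6, 65117293 to 65144981), the hematopoietic prostaglandin D2 synthase, had 0.0524 and 0.0298 FPKM in WT against 0.240 and 0.122 in CD274-null, from at least 2, 1, 7 and 4 reads, and did not pass the filter.

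**Figure D2:**
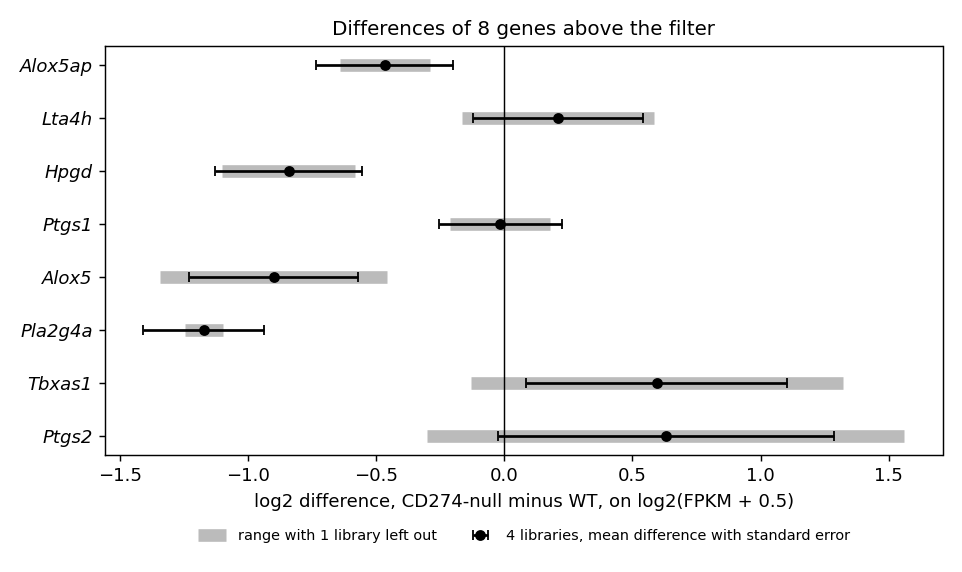
Difference of the group means on the log2(FPKM + 0.5) scale for 8 of the 9 genes above the filter (without Ltc4s, which passed through WT replicate 2 alone), CD274-null minus WT; points with bars are the 4-library value and its standard error from limma, and grey bands span the values with 1 library left out. The bands of Pla2g4a, Alox5, Alox5ap and Hpgd lie below 0 throughout, as they must where both CD274-null libraries are below both WT libraries. Those of Lta4h, Ptgs1, Ptgs2 and Tbxas1 cross 0.

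Of the 9 genes above the filter, 6 were lower in CD274-null and 3 higher, and the median log2 difference was -0.47, against 0.01 over all 13230 tested genes. Both CD274-null libraries lay below both WT libraries for 5 of the 9 and above for 0, where 21.8% and 25.6% of all tested genes did so. These counts include Ltc4s, which passed the filter only through a WT library; without it 5 of 8 were lower, 4 of 8 did not overlap, and the median was -0.24. A gene was called when the unadjusted p of limma was under 0.01 and the fold change above 1.5, the thresholds used by the study. By this rule 1.24% of tested genes were called lower and 2.39% higher, and of the 9 genes 1 was called lower, Pla2g4a, and 0 higher. No gene of the 9 was called without WT replicate 1 or without either CD274-null library. With Benjamini-Hochberg adjustment over all genes in limma, 0.0756% of tested genes and 0 of the 9 had an adjusted p under 0.05. Nothing is read from these counts, since the genes were proposed with this contrast known. In bulk RNA, fewer cells that express a gene and less RNA of it per cell cannot be told apart.

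The rest of the pathway was examined through a list of 85 other genes, of which 49 passed the filter. In it 5 genes were called, 4 higher and 1 lower in CD274-null, where 3.63% of all tested genes were called, and 0 had an adjusted p under 0.05 in limma. An unadjusted p under 0.05 in limma was found for 12 of the 49, against 13.7% of all tested genes. The median log2 difference of the 49 was 0.16. Nothing is read from these counts, since the list was chosen with earlier results of these data known. The p-values of its genes below carry the same limit. The 5 called genes were the degrading enzyme Ptgr1, the glutathione transferase Mgst2, the leukotriene B4 receptor Ltb4r1, the prostacyclin receptor Ptgir and the phospholipase Pla2g4b. Called genes that were higher were split between enzymes and a receptor, and no role group held more than 2 called genes.

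**Figure D3:**
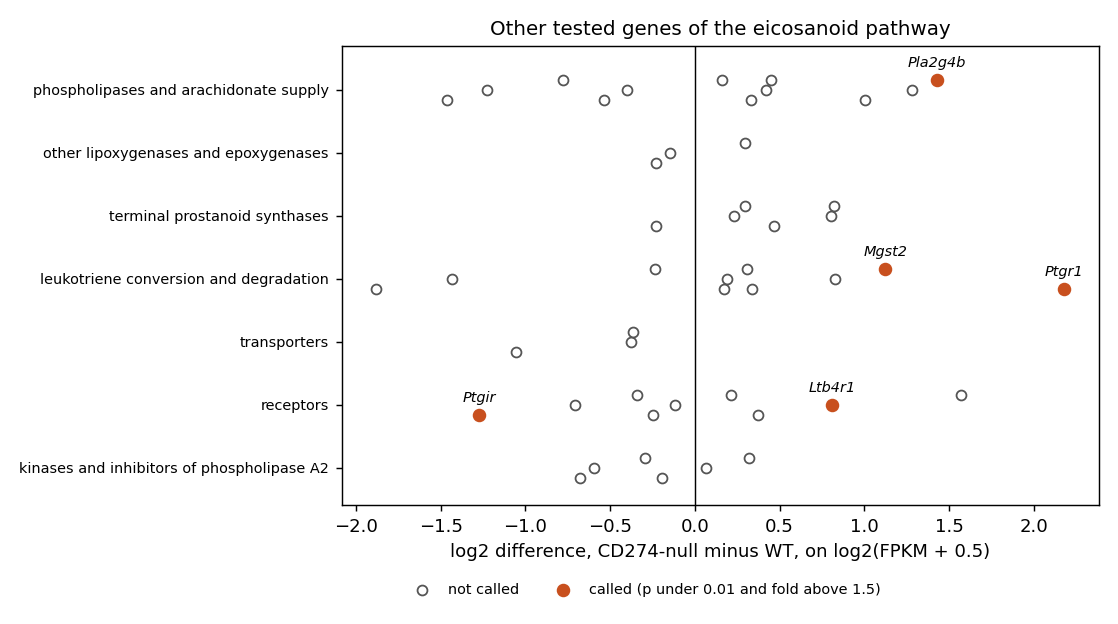
Log2 difference, CD274-null minus WT on log2(FPKM + 0.5), of the 49 tested genes of the wider pathway list, 1 point per gene, in rows by role with points spread vertically for legibility; filled points were called. Ptgr1 lies farthest to the right at 2.18, with Pla2g4b, Mgst2 and Ltb4r1 also right of 0 and Ptgir at -1.27.

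Ptgr1 (prostaglandin reductase 1, chromosome 4, 58965590 to 58987131) inactivates leukotriene B4 and reduces the 15-keto prostaglandins that Hpgd forms. Its FPKM was 37.6 and 47.3 in WT against 209 and 178 in CD274-null, from at least 914, 1014, 3880 and 3727 reads. Both CD274-null libraries were well above both WT libraries, at 455% of the WT mean, and the gap between the groups was larger than the spread within either. The log2 difference was 2.18 (standard error 0.22, unadjusted p = 5.48e-05 and adjusted p = 0.0659 in limma). The adjusted p of limma ranged from 0.0344 to 0.517 over the alternative fits, and the gene was called in all 16 of them. Set against Hpgd, the enzyme before it in prostaglandin breakdown, the ratio of FPKM was 0.0698 and 0.0613 in WT against 0.533 and 0.538 in CD274-null.

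Mgst2 (chromosome 3, 51636912 to 51682675), a microsomal glutathione transferase that can also form leukotriene C4, rose in CD274-null, from 34.05 and 44.5 in WT to 81.2 and 90.02, a log2 difference of 1.12 (standard error 0.23, unadjusted p = 0.00222 and adjusted p = 0.251 in limma). In each library its FPKM exceeded that of Ltc4s. Mgst2 overlaps 1 other annotated gene. It was called in 13 of 16 alternative fits, and not without either CD274-null library (log2 difference 1.20 without replicate 1 and 1.05 without replicate 2) or in the linear model without moderation.

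Ltb4r1, the high-affinity receptor of leukotriene B4 (chromosome 14, 55765962 to 55768492), had 72.8 and 60.0 in WT against 110.4 and 122 in CD274-null. All values of one group were above those of the other, with a log2 difference of 0.81 (standard error 0.21, unadjusted p = 0.00839 and adjusted p = 0.274 in limma). Ptgir, the prostacyclin receptor (chromosome 7, 16906490 to 16910905), was low and fell further, from 4.93 and 4.15 in WT to 1.73 and 1.45 in CD274-null, on at least 190, 141, 51 and 48 reads. Its log2 difference was -1.27 (standard error 0.33, unadjusted p = 0.00805 and adjusted p = 0.274 in limma). Pla2g4b, a phospholipase A2 of the same family as Pla2g4a (chromosome 2, 120033433 to 120043033), had 0.762 and 1.27 in WT against 3.08 and 4.03 in CD274-null, the opposite direction to Pla2g4a at a lower level. Its log2 difference was 1.43 (standard error 0.38, unadjusted p = 0.00900 and adjusted p = 0.274 in limma). The gene overlaps Gm28042 and Sptbn5, so its reads may belong in part to them. The calls of Ltb4r1, Ptgir and Pla2g4b each depended on the processing, with 6 of 16, 7 of 15 and 5 of 15 alternative fits calling them. All 3 were lost without moderation, at the same log2 differences, and Ltb4r1 and Pla2g4b with the GC correction, at 0.61 and 1.28. With 1 library left out, Ltb4r1 was called only without WT replicate 1, Pla2g4b only without WT replicate 2, and Ptgir in no case.

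**Figure D4:**
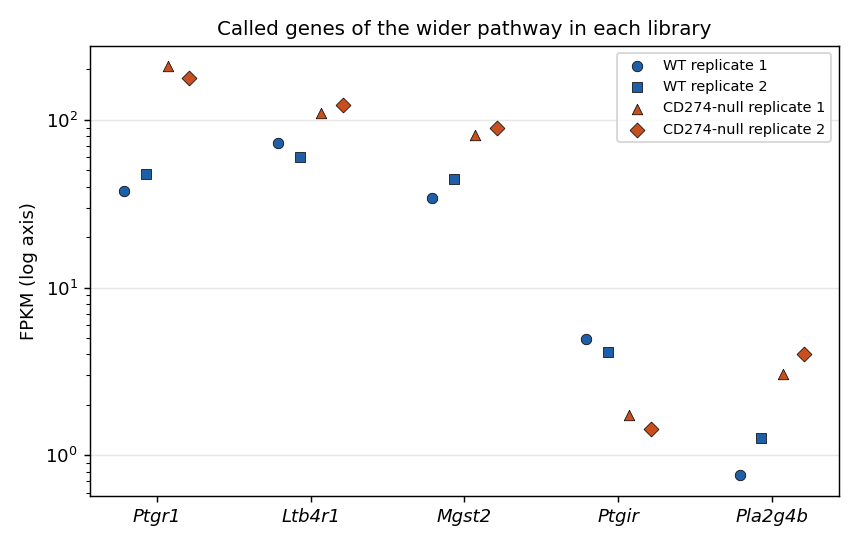
FPKM on a log axis of the 5 called genes of the wider list in the 4 libraries, with the same symbols per library as in the plot of all 10 genes. Ptgr1, Ltb4r1, Mgst2 and Pla2g4b are higher in both CD274-null libraries than in both WT libraries, and Ptgir is lower; for Ptgr1 the lowest CD274-null value is 178 and the highest WT value 47.3.

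In the fit as reported, no gene was called among the terminal prostanoid synthases (5 of 6 tested higher in CD274-null), the transporters (0 of 3 higher), the other lipoxygenases and epoxygenases (1 of 3 higher) or the kinases and inhibitors of phospholipase A2 (2 of 6 higher). Of all 13230 tested genes 6757 were higher, and a difference between role groups was not tested. Among phospholipases and arachidonate supply, 12 of 26 genes were tested, and the highest of them, the lysosomal phospholipase Pla2g15, had 13.9 and 31.5 in WT against 44.9 and 59.7 in CD274-null (log2 difference 1.28, adjusted p = 0.299 from limma, though called in 3 of 16 alternative fits, and between 0.71 without WT replicate 1 and 1.86 without WT replicate 2). The lipoxygenases other than Alox5 had at most 0.545 FPKM in any library, and of 13 lipoxygenase, epoxygenase and epoxide genes only 3 were tested, with Cyp4f13 the highest at a mean FPKM of 19.0. The terminal prostanoid synthases, 8 in the list, were led by Ptges3, a co-chaperone that is also described as a cytosolic prostaglandin E synthase, at 21.6. In leukotriene conversion Cotl1, which binds 5-lipoxygenase, had a mean FPKM of 398 and a log2 difference of -0.24 (adjusted p = 0.700 from limma), which ran from -0.40 to -0.07 with 1 library left out and was -0.45 with the GC correction. Among transporters Abcc1, which exports leukotriene C4, averaged 18.7. Anxa1, an inhibitor of phospholipase A2 signalling, had 625 and 342 in WT against 256 and 327 in CD274-null (log2 difference -0.67, adjusted p = 0.440 from limma, and -0.24 without WT replicate 1 against -1.11 without WT replicate 2).

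Further genes of the list were chosen after their values were seen. Dpep2, a dipeptidase that turns leukotriene D4 into E4, stood at 18.2 and 30.6 FPKM in WT and at 10.9 and 3.24 in CD274-null (log2 difference -1.88, adjusted p = 0.293 from limma). The prostaglandin E2 receptor gene Ptger4 had 0.437 and 0.629 in WT against 1.79 and 3.56 in CD274-null (log2 difference 1.57, adjusted p = 0.284 from limma). Ptger1, another receptor of prostaglandin E2, had the second highest level of the receptors after Ltb4r1, at 35.7 and 51.6 in WT against 55.5 and 56.0 in CD274-null. None of these 3 was called in the fit as reported, but Ptger4 was called in 5 of 16 alternative fits and Dpep2 in 2, among them for both the one without CD274-null replicate 1.

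Because Pla2g4a, Alox5 and Hpgd were lower in both CD274-null libraries and Ptgr1 higher, the DNA before their start sites was searched for short promoter motifs. The 250 bases before the annotated start of each are printed 5′ to 3′ on the gene's strand (RefSeq, GRCm38.p6), at chr1:149961291-149961540 on the minus strand for the upstream start of Pla2g4a, chr6:116461179-116461428 on the minus strand for Alox5, chr8:56294302-56294551 on the plus strand for Hpgd and chr4:58987079-58987328 on the minus strand for Ptgr1. Capitals mark matches on either strand to the GC box GGGCGG, the TATA box TATAAA or the ETS motif AGGAAG. The shorter ETS core GGAA within it was not searched for on its own.
Pla2g4a: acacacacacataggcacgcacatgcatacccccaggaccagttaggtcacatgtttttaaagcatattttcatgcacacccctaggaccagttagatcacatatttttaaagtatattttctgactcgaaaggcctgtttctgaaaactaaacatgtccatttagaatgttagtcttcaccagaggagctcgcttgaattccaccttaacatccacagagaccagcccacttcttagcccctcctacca
Alox5: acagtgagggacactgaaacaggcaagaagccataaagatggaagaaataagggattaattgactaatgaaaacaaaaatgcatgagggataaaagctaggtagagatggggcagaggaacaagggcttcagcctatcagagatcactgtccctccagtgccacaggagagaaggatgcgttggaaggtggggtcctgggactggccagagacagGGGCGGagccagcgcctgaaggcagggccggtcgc
Hpgd: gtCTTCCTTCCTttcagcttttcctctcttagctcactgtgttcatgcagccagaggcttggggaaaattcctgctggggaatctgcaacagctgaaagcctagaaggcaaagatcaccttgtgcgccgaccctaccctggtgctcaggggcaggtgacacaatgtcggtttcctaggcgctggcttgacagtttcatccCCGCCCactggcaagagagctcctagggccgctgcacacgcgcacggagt
Ptgr1: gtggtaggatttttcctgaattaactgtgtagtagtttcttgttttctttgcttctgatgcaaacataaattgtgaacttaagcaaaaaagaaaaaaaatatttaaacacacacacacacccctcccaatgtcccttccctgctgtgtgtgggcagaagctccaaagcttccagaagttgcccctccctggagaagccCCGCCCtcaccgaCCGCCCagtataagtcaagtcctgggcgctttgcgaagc

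The GC box was found at -35 to -30 before the start of Alox5, at -50 to -45 for Hpgd, and at -52 to -47 and -39 to -34 for Ptgr1, where -1 is the base before the start. Among 32851 promoter windows of this length, 32.7% held this motif. The ETS motif AGGAAG, present in 29.5% of windows, matched Hpgd at 2 places that overlap each other, from -248 to -243 and from -244 to -239. The TATA box, present in 12.4%, matched none of the 4 printed windows. No motif of the 3 was found before the upstream start of Pla2g4a. A second annotated start of Pla2g4a, at 149922439, has a TATA box match at -200 to -195 and an ETS motif match at -13 to -8. These matches describe the letters only, and none of the 3 searched motifs was common to the windows of Pla2g4a, Alox5 and Hpgd. Of the 10 synthesis genes, 9 had a promoter window in the reference, Alox5ap being the other.

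Some markers of other cells moved between the same libraries. Of the mast cell and basophil markers, 4 of 10 had a mean FPKM of at least 0.5, with Hdc the highest, while Fcer1a, Tpsb2, Tpsab1 and Cma1 were listed at 0. The summed FPKM of the 10 was 41.8 and 50.1 in WT against 79.0 and 109.8 in CD274-null. Of the 4, Hdc and Ms4a2 were higher in both CD274-null libraries. Cpa3 (8.45 and 6.49 in WT against 7.86 and 43.1 in CD274-null) and Mcpt8 (10.3 and 32.1 against 37.2 and 14.8) overlapped. Of the 10 megakaryocyte and platelet markers, led by Gp1bb, Pf4, Ppbp and Gp6 were listed at 0 in all libraries, and CD274-null replicate 2, where Ptgs2 was high, had the highest sum at 59.4 against 24.3 to 28.0. All 10 neutrophil markers were present, S100a9 the highest, and their sum ran from 43483 in WT replicate 1 to 8796 in WT replicate 2, with 18350 and 31402 in CD274-null. WT replicate 1 also had the highest Alox5ap and Lta4h, while WT replicate 2 with the lowest sum had the second highest Alox5ap and the lowest Lta4h.

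Macrophage markers, 6 of 11 present with Vcam1 highest and Timd4 at 0, summed to 148 and 145 in WT and to 90.4 and 106 in CD274-null, lower in the same libraries as Pla2g4a and Hpgd. This difference came from Vcam1 (117 and 92.3 in WT against 53.7 and 59.8 in CD274-null), and without it the sums overlapped at 30.9 and 52.9 in WT against 36.7 and 46.5 in CD274-null. Eosinophil markers, 5 of 8 present and led by Prg2, summed to 43.7 and 538 in WT against 88.1 and 416 in CD274-null. B and plasma cell markers, 5 of 10 present with Xbp1 highest, summed to 208 and 126 in WT against 445 and 507 in CD274-null. Xbp1 overlapped, at 177 and 66.8 in WT against 133 and 106 in CD274-null. Of the others, named after their values were seen, the immunoglobulin kappa gene Igkc had 8.64 and 7.98 in WT against 214 and 189 in CD274-null (adjusted p = 0.00245 from limma). Jchain had 0.370 and 0.514 in WT against 12.3 and 10.5 in CD274-null, and Ighm 9.04 and 14.1 against 49.1 and 162. Jchain passed the filter on low values through the CD274-null libraries alone, so no p-value is given for it. Erythroid markers reached 55.7 in WT replicate 2, led by Hbb-bs at 26.9 and Hba-a1 at 18.1, against 0.589 to 4.85 in the other libraries, and of the 8 T and NK cell markers none passed, with sums of at most 3.18 and Trac the highest. The part of these cells in the levels of the eicosanoid genes was not tested.

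**Figure D5:**
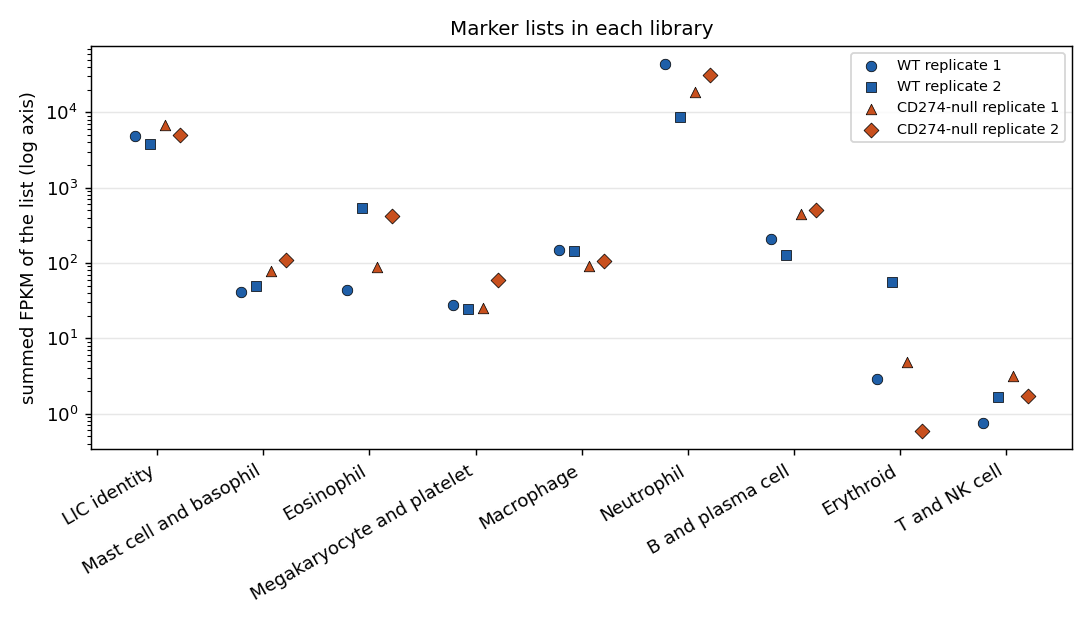
Summed FPKM of each marker list in the 4 libraries, on a log axis. The neutrophil sum varies between the WT replicates from 8796 to 43483, the erythroid sum is highest in WT replicate 2, and the mast cell and basophil and the B and plasma cell sums are higher in both CD274-null libraries.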

How the data were processed

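RNA of LICs, which the study sorted as Mac-1+/c-Kit+ cells, was sequenced in 4 libraries. The study's sequencing methods describe RNA isolated from tissue and name no sort. According to the study's methods and the submitters' processing notes, the authors aligned TruSeq v2 reads from a HiSeq2500 to GRCm38 with TopHat2 2.0.12, and they deposited FPKM (fragments scaled by gene length and mapped reads), 1 value per NCBI gene number and library; the program, gene lengths and strand setting behind FPKM are not given in the sources used here. Symbols and positions came from RefSeq (GRCm38.p6).

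In R 4.3.3, limma 3.58.1 (lmFit, then eBayes with a mean-variance trend, no covariates) was fitted to log2(FPKM + 0.5) of the 13230 genes whose mean FPKM reached 0.5, and p-values were adjusted over all of them by Benjamini-Hochberg. A gene was called at an unadjusted p below 0.01 together with a change of over 1.5-fold. The log2(FPKM + 0.5) scale understates changes of low genes. Dividing out the depth of the libraries (0.880, 0.764 and 0.861 of WT replicate 1) left each gene's FPKM in whole-number proportions, which gave whole reads for 17082 of 17083 genes above 0 in at least 2 libraries (tolerance 0.001 reads). A common factor of the reads cannot be seen, so printed reads are minimum values. The fit was tested on simulated data.

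The genes and lists were chosen with earlier results of these data known. Genes are named by rule: the 10 synthesis genes, called genes of the wider list, and the highest gene of each role group and marker list. Dpep2, Ptger4, Ptger1, Mpo, Ptprc, Cpa3, Mcpt8, Ms4a2, Igkc, Jchain, Ighm, Hba-a1 and the motifs were chosen after the data were seen. Of 83 markers 82 were matched; 3 of the 85 wider genes were matched by an older name. Tables and plots were made in Python 3.11.15. Alternatives were pseudocounts of 1 and 0.1, a filter at a mean FPKM of 5 or none, quantile normalization, equal medians, eBayes without trend, no moderation, voom on recovered reads, a GC correction (loess, span 0.3), the replicate number as a block, and each library left out.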

Additional observations from a re-analysis of the deposited data

How the results depend on the processing

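The number of called genes, 480 of 13230 in the fit as reported, was 170 in a linear model without moderation, 325 with the GC correction and 297 with the replicate block and the GC correction, and ran from 147 to 634 with 1 library left out, lowest without CD274-null replicate 2 and 235 without CD274-null replicate 1. Of the called genes 65.8% were higher, against 54.6% after quantile normalization and 55.3% with equal medians. In the wider list, 5 genes were called, against 2 with a mean FPKM of at least 5, 3 with equal medians and 1 without moderation, and from 1 to 7 with 1 library left out. No source used here says what libraries of the same replicate number share. Deviations of same-numbered libraries had a correlation of -0.0151 over genes, which with so few libraries cannot settle whether a batch was shared. With the replicate block 526 genes were called, with 21 at an adjusted p under 0.05 in limma against 10. Of the wider list 5 were called by limma with the block, of which 2 (Ptgr1 and Mgst2) were among the 5 called without it. Ltb4r1 (unadjusted p = 0.012 in limma), Ptgir (0.0158) and Pla2g4b (0.013) were not called with the block, and Pla2g15 (0.0021) was. Pla2g4a, Alox5, Alox5ap and Hpgd were lower in CD274-null under every alternative that gave a value. With 1 library left out their sign could not turn, since both CD274-null libraries lay below both WT libraries. The sign of Lta4h, Ptgs1, Ptgs2 and Tbxas1 turned when a single library was left out. Of the 9 synthesis genes above the filter 1 was called, against 2 with the replicate block and the GC correction. Ptgr1 was called under all 16 alternatives. With 1 library left out, the lone library of a group is assumed to vary like the others. Depth limits Ltc4s and Hpgds, at mean levels of 0.667 and 0.111 FPKM.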
